A study of Mus musculus with 48 samples.

Results

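Upk3b, Upk1b, Msln and Lrrn4 are widely used marker genes of mesothelium. They were taken by symbol from a table of gene counts and a table of FPKM values (fragment counts scaled to exon length and library size), and by Ensembl gene ID from a 10x single-cell table. All 4 genes were found in each table, which listed 22173 genes in the counts, 13682 genes in the FPKM values and 32285 gene IDs in the 10x counts.

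The study compared somatic cells of mouse gonads with cells that were driven toward that fate from female embryonic stem cells (ESCs), all of strain C57BL/6. Gonadal somatic cells (GSCs), for which the methods describe removal of SSEA1-positive germ cells on magnetic columns at E12.5, came from female gonads at E12.5, E13.5 and E16.5 and from ovaries 6 weeks after birth (P6w), with 2 bulk libraries per stage. ESCs were treated with vitamin C (Vc) and AM580, an agonist of a retinoic acid receptor, which together are called V580, after feeder fibroblasts had been removed only by their faster adherence to the dish. The V580 cells were sequenced in bulk on days 4, 6, 8 and 10, with 3 libraries per day beside 3 libraries of E12.5 female gonads (E12.5_GC), and as 1 10x library on day 6. An early series held ESCs after 24 h and 48 h with no compound (Con), Vc, AM580 or V580, with 2 libraries each. Nothing in the labels said whether libraries of a group came from separate animals or cultures, so the p values below measure the spread between libraries, which may be technical. In bulk libraries a fall in the number of cells of a type cannot be told apart from less RNA per cell.

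Mesothelium is the thin epithelium that lines the body cavities and covers the organs in them. In the embryo its counterpart on the gonad is the coelomic epithelium, which gives rise to part of the gonadal soma and later covers the ovary as its surface epithelium. Upk3b and Upk1b are uroplakins, membrane proteins best known from the surface plaques of the bladder epithelium, where Upk1b is a tetraspanin that pairs with an Upk3 protein. Msln (mesothelin) is a glycoprotein held on the cell surface by a lipid anchor and binds the mucin Muc16, and Lrrn4 is a transmembrane protein with leucine-rich repeats.

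The genes lie on different chromosomes of GRCm38 in GENCODE vM21. Upk3b (ENSMUSG00000042985) spans chr5:136038496-136046487 on the plus strand with 6 exons, and Upk1b (ENSMUSG00000049436) spans chr16:38773184-38800328 on the minus strand with 8 exons. Msln (ENSMUSG00000063011) spans chr17:25748613-25754378 on the minus strand with 15 exons, and Lrrn4 (ENSMUSG00000043110) spans chr2:132868305-132880891 on the minus strand with 5 exons. No other annotated gene overlapped any of them. Of all 50-base words of their exons, 0 of Upk3b, Upk1b and Lrrn4 and 2.88% of Msln were also found in exons of another gene.

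Upstream sequences are shown for Upk3b and Lrrn4, the members with a window in the table used here, so that both can be read beside the results below; those of Upk1b and Msln were not analysed here. They come from RefSeq (GRCm38.p6), run 5′ to 3′ on the strand of the gene and end upstream of its annotated start, at chr5:136038246-136038495 (plus strand) for Upk3b and chr2:132880892-132881112 (minus strand) for Lrrn4. Capitals mark matches on either strand to GGAATG, the core read by TEAD factors, and AGGTCA, a nuclear receptor half-site.
Upk3b: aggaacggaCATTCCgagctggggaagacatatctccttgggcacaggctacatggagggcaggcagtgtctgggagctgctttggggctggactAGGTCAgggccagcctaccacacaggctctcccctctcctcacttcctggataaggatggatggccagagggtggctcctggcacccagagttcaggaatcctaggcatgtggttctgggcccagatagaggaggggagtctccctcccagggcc
Lrrn4: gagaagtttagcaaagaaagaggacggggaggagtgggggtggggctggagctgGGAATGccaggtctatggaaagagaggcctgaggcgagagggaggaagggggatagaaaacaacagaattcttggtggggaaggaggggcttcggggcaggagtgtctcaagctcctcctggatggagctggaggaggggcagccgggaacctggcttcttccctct
Each window held 1 match to GGAATG, which 12.6% of the 250-base windows upstream of all 32851 RefSeq starts also held. Each 250-base RefSeq window also held 1 match to AGGTCA, found in 14% of all windows. That of Lrrn4 lay in the 29 bases left out of the stretch printed, which fall within its annotated gene. Neither window held the Gata word AGATAA (9.99% of all windows), the Sp1 word GGGCGG (32.7%), a TATA box written as TATAAA (12.4%) or the Klf word CCACGCCC (4.79%). A match describes letters and is not evidence of binding.

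The GSC libraries held 12694769 to 22259044 counts, and the FPKM libraries held 16441500 to 28310500 fragments, as recovered from the steps of their low values. Both E12.5 GSC libraries, labelled as female, held RNA of the Y-linked gene Ddx3y at 4.49 and 5.09 CPM (counts scaled to library size), against 0 to 0.228 CPM in the 6 other GSC libraries. Comparisons among E13.5, E16.5 and P6w do not rest on those libraries and are given beside those that do. Lane tags in the labels placed E12.5, E13.5 and the first E16.5 library on lane 5 and the others on lane 1. P6w thus shared no lane with E12.5 or E13.5, and a term for the lane could be estimated only from the pair of E16.5 libraries. The E16.5 libraries differed from each other more than other pairs did, with a chi-square of 35.7 per degree of freedom against 5.80 to 6.66.

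In GSCs, Upk3b was far lower at P6w than at any fetal stage, Lrrn4 was highest at E12.5 and lowest at P6w, and Upk1b peaked at E16.5. For Lrrn4 the difference between E12.5 and the later fetal stages rested on the E12.5 libraries and was not stable. Msln ran the other way and rose from almost no reads to the highest level of the 4 genes per length. Levels below are CPM after TMM scaling, and differences are log2 fold changes ± SE from edgeR's quasi-likelihood test, with p adjusted by Benjamini-Hochberg over 16398 genes. All 4 genes passed the filter on low counts.

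**Figure D1:**
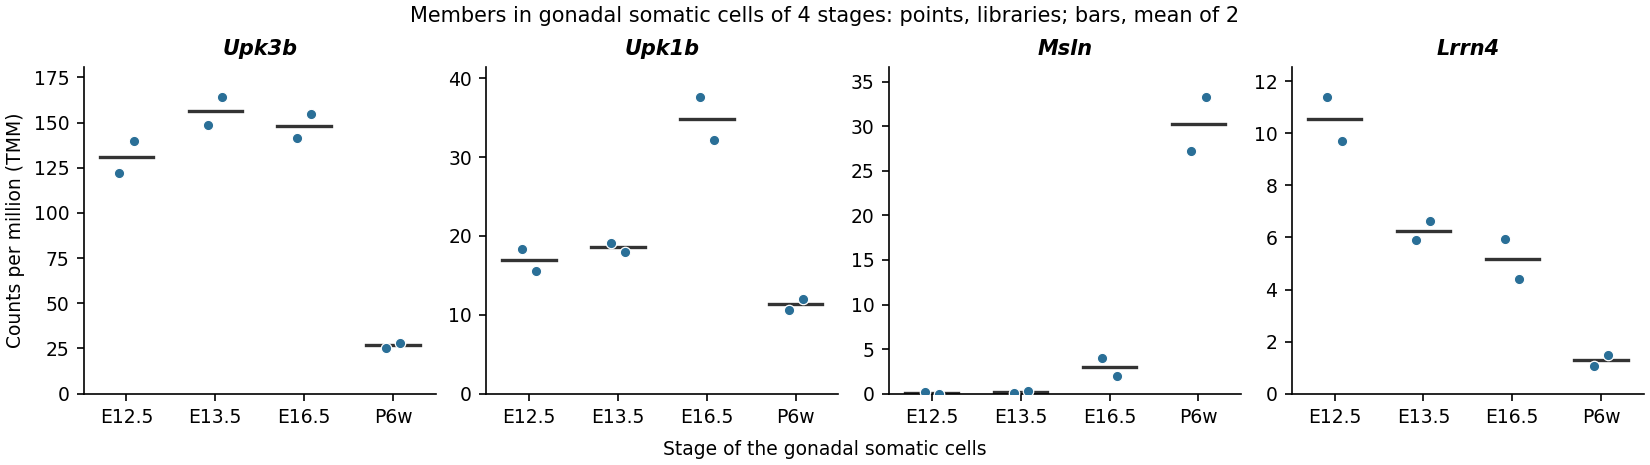
Levels of Upk3b, Upk1b, Msln and Lrrn4 (CPM after TMM scaling, each panel on its own linear axis from 0) in the GSC libraries of 4 stages, with 1 point per library and a bar at the mean of 2. Msln at P6w (27.2 and 33.3 CPM) is the only gene whose highest stage is P6w, whereas Lrrn4 is highest at E12.5 (11.4 and 9.68 CPM).

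Upk3b stood at 122 and 140 CPM at E12.5, 149 and 164 CPM at E13.5, 142 and 155 CPM at E16.5, and 25.2 and 28.2 CPM at P6w. The P6w libraries lay far below all fetal ones, and the fetal stages lay close together. Upk3b fell by 2.30 ± 0.134 on the log2 scale from E12.5 to P6w (edgeR adjusted p = 1.7e-09) and fell by 2.47 ± 0.135 from E16.5 to P6w (edgeR adjusted p = 7.07e-10). Between fetal stages it did not pass the test: the difference from E12.5 was 0.26 ± 0.123 at E13.5 (edgeR adjusted p = 0.102) and 0.18 ± 0.123 at E16.5 (edgeR adjusted p = 0.275), although neither pair of stages overlapped.

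Lrrn4 stood at 11.4 and 9.68 CPM at E12.5, 5.89 and 6.62 CPM at E13.5, 5.93 and 4.41 CPM at E16.5, and 1.06 and 1.5 CPM at P6w, the last from 13 and 18 counts. Only the E13.5 and E16.5 libraries overlapped, and their difference of -0.26 ± 0.257, which does not rest on E12.5, did not pass (edgeR adjusted p = 0.404). It was the only one of the 4 genes that passed the test between E12.5 and E13.5, where 45.9% of all genes did (22.1% lower), and it fell there by 0.75 ± 0.249 on the log2 scale (edgeR adjusted p = 0.0219). Against E12.5 it differed by -1.02 ± 0.251 at E16.5 (edgeR adjusted p = 0.00517) and by -3.04 ± 0.313 at P6w (edgeR adjusted p = 9.75e-07), and it fell by 2.02 ± 0.323 from E16.5 to P6w (edgeR adjusted p = 8.2e-05). The E13.5 call was lost without any 1 of the 4 libraries (adjusted p = 0.0515 to 0.161) and under DESeq2 (adjusted p = 0.0595), and the E16.5 call was lost without the first E12.5 library (adjusted p = 0.0639).

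Upk1b stood at 18.3 and 15.5 CPM at E12.5, 19.2 and 18.0 CPM at E13.5, 37.6 and 32.1 CPM at E16.5, and 10.6 and 12 CPM at P6w. The E16.5 libraries lay above and the P6w libraries below all others. It rose by 1.04 ± 0.168 on the log2 scale from E12.5 to E16.5 (edgeR adjusted p = 0.00021) and by 0.91 ± 0.168 from E13.5 to E16.5 (edgeR adjusted p = 0.000345), and fell by 1.63 ± 0.179 from E16.5 to P6w (edgeR adjusted p = 1.81e-06). Its difference of -0.58 ± 0.18 between P6w and E12.5 (edgeR adjusted p = 0.0131) was no longer past the threshold with a term for the lane (-0.36, adjusted p = 0.303) or without the first E12.5 or the first P6w library (adjusted p = 0.134 and 0.102).

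Msln had 4 and 0 counts at E12.5, 2 and 6 counts at E13.5, 93 and 33 counts at E16.5, and 333 and 400 counts at P6w. These were 0.185 and 0 CPM, 0.102 and 0.342 CPM, 4.03 and 2.02 CPM, and 27.2 and 33.3 CPM. E12.5 and E13.5 overlapped near 0, the first E16.5 library stood well above the second, and P6w lay above all. By summed counts, Msln was 32.1 times higher at E16.5 than at E12.5 (exact 95% counting interval 12.2 to 120) and 270 times higher at P6w (105 to 994). It rose from E12.5 to E16.5 (edgeR adjusted p = 2.95e-05) and to P6w (edgeR adjusted p = 7.3e-09). Apart from E12.5, it rose by 3.80 ± 0.568 on the log2 scale from E13.5 to E16.5 (edgeR adjusted p = 5.51e-05) and by 3.29 ± 0.35 from E16.5 to P6w (edgeR adjusted p = 1.31e-06). The size of the rise leans on single libraries: from E12.5 to P6w it was 7.29 on the log2 scale without the second E12.5 library and 12.03 without the first, which had all the E12.5 counts of Msln.

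Set per kilobase of exon, which allows levels of different genes to be compared, the order at E12.5 was Upk3b at 37.1, Upk1b at 8.10, Lrrn4 at 2.84 and Msln at 0.0302 CPM per kilobase. At P6w it was Msln at 9.87, Upk3b at 7.56, Upk1b at 5.41 and Lrrn4 at 0.345 CPM per kilobase, and no neighbours in either order overlapped between libraries. The gene that was last at E12.5 was thus first at P6w.

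Against E12.5, 3 of the 4 members were called at E16.5, where 37.6% of all genes passed. Of these 2 rose, as 20.5% of all genes did, and 1 fell, as 17.1% did. All 4 were called at P6w, where 52.9% of all genes passed, and 1 rose (25.4% of all genes) and 3 fell (27.5%). The medians of their log2 fold changes were 0.61 at E16.5 and -1.44 at P6w, against -0.01 and -0.04 over all genes. Without E12.5, 2 members rose from E13.5 to E16.5 (54.1% of all genes passed, 28.7% upward), and from E16.5 to P6w 1 rose and 3 fell (56.1% of all genes passed, 26.3% upward and 29.8% downward). These comparisons share libraries and are not independent.

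Other genes of mesothelium and coelomic epithelium, were counted over a list of 23. From E12.5 to P6w, 7 of them rose and 13 fell, with a median log2 fold change of -0.92. Of all genes, 25.4% rose and 27.5% fell. The genes that fell most were Tbx18 (-7.41), a T-box factor, Lhx9 (-6.43), a LIM homeobox factor of the genital ridge, Podxl (-4.77), a sialomucin, and Wt1 (-4.05), the zinc finger factor that marks coelomic epithelium. Aldh1a1, which makes retinoic acid, rose by 2.53. Muc16, the partner of Msln, did not pass (-0.77, edgeR adjusted p = 0.0904) and stood at 2.33 to 2.70 CPM at P6w. The summed level of 10 mesothelial markers other than the 4 members was 1071 to 1089 CPM at E12.5, 455 to 470 CPM at E13.5, 509 to 644 CPM at E16.5 and 78.8 to 85.1 CPM at P6w, where Tbx18 was at 0. Markers of adult granulosa cells moved with the P6w result, from 134 to 140 CPM at E12.5 to 33959 to 34123 CPM at P6w, and interstitial markers stood highest at E16.5 (3565 to 4166 CPM). Endothelial markers went from 246 to 253 CPM at E12.5 to 89.3 to 93.8 CPM at E13.5 and 23.7 to 31.2 CPM at P6w. Erythroid genes went from 3593 to 3965 CPM at E12.5 to 12430 to 13904 CPM at E13.5 and 252 to 279 CPM at P6w. Germ cell markers summed to 9.52 to 10.9 CPM at E12.5, 32.0 to 34.7 CPM at E13.5, 107 to 128 CPM at E16.5 and 8.11 to 8.20 CPM at P6w. Their part in the changes of the 4 genes was not tested.

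Close relatives took mixed courses. Among uroplakins, Upk3a rose from 0 to 0.346 CPM at E12.5 to 2.29 to 2.58 CPM at P6w (log2 fold change 3.79 ± 0.937, edgeR adjusted p = 0.00318), opposite to Upk3b. Of the Lrrn family, Lrrn2 rose by 3.37 on the log2 scale from E12.5 to P6w (edgeR adjusted p = 2.76e-08), whereas Lrrn1 and Lrrn3 were lower (-1.87 and -3.26, edgeR adjusted p = 3.63e-05 and 0.00156).

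In V580 cells, all 4 genes stood above E12.5_GC by day 8, but they reached that point by different routes. Lrrn4 and Msln were above E12.5_GC from day 4, whereas Upk1b was called lower on day 4 and Upk3b lay below it there, and both lay above it on day 6 by under 2-fold. Levels are FPKM, mean ± SD of 3 libraries, and differences are log2 fold changes of FPKM + 1 ± SE from limma, adjusted over 11512 genes. A gene was called at an adjusted p below 0.05 and at least 2-fold.

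**Figure D2:**
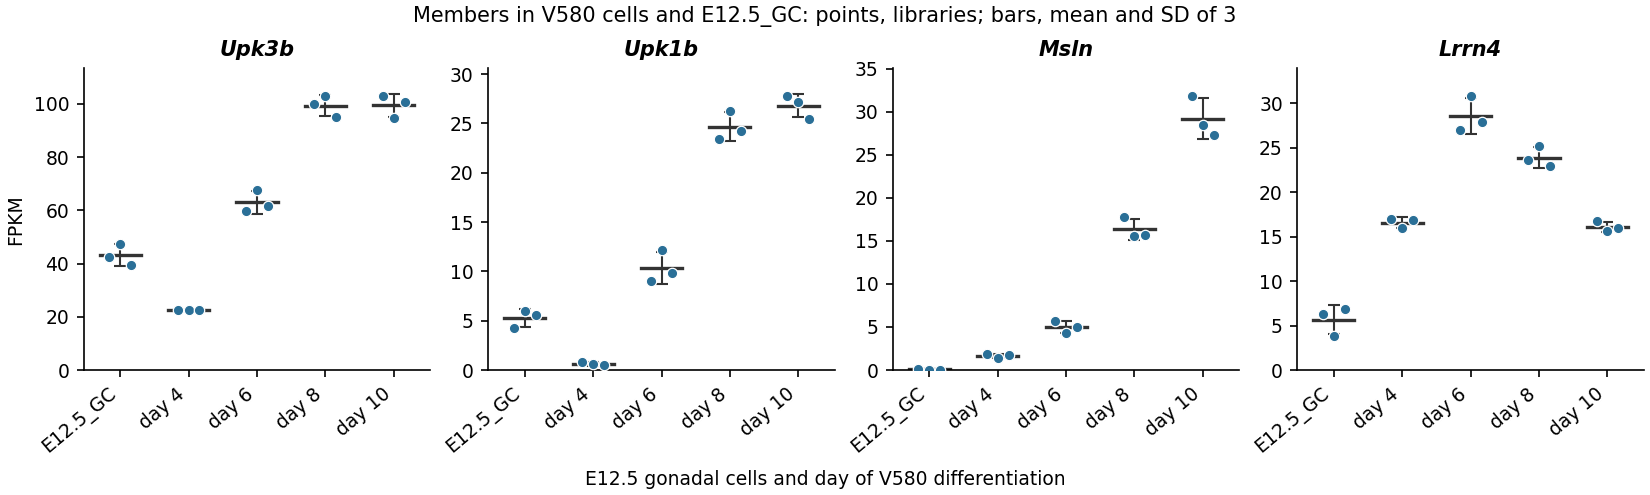
FPKM of the 4 genes in E12.5_GC and in V580 cells on days 4, 6, 8 and 10, with 1 point per library and bars for mean and SD of 3 libraries, each panel on its own linear axis from 0. Msln goes up through day 10 (29.2 FPKM), Upk3b and Upk1b level off after day 8, and Lrrn4 is highest on day 6 (28.6 FPKM).

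Upk3b stood at 42.5, 47.4 and 39.4 FPKM in E12.5_GC. In V580 cells it was 22.5, 22.6 and 22.4 FPKM on day 4, 59.6, 67.8 and 61.6 FPKM on day 6, 99.9, 103 and 95.1 FPKM on day 8, and 103, 94.6 and 100 FPKM on day 10. E12.5_GC, day 4 and day 6 each lay apart from all other groups, and days 8 and 10 overlapped. Against E12.5_GC it was higher on day 8 (1.19 ± 0.0722, limma adjusted p = 2.04e-09) and day 10 (1.19 ± 0.0722, limma adjusted p = 1.59e-09). On days 4 and 6 it passed the p threshold but stayed under 2-fold (-0.91 and 0.54).

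Upk1b followed Upk3b on a lower level, with 5.30 ± 0.890 FPKM in E12.5_GC, 0.612 ± 0.16 on day 4, 10.3 ± 1.6 on day 6, 24.7 ± 1.48 on day 8 and 26.8 ± 1.21 on day 10. The day 4 libraries, at 0.459 to 0.778 FPKM, rested on 23 to 37 fragments and lay below every E12.5_GC library (4.29 to 5.98 FPKM). Upk1b was lower than E12.5_GC on day 4 (-1.96 ± 0.114, limma adjusted p = 7.35e-10) and higher on day 8 (2.03 ± 0.114, limma adjusted p = 7.81e-10) and day 10 (2.15 ± 0.114, limma adjusted p = 3.25e-10). Between days 4 and 6 it rose by 2.81 ± 0.114 (limma adjusted p = 1.12e-10), or 16.9 times by the ratio of means.

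Msln had 9, 1 and 1 fragments in E12.5_GC, which is 0.153, 0.0202 and 0.0242 FPKM. In V580 cells it was 1.67 ± 0.240 FPKM on day 4, 5.03 ± 0.685 on day 6, 16.3 ± 1.23 on day 8 and 29.2 ± 2.37 on day 10, and no library of one day overlapped another day. By summed fragments it was 22.6 times the level of E12.5_GC on day 4 (exact 95% counting interval 12.4 to 45.9) and 397 times on day 10 (222 to 796). It was called higher on each day, with a log2 fold change of 1.32 ± 0.0975 on day 4 (limma adjusted p = 1.2e-08) and 4.82 ± 0.0975 on day 10 (limma adjusted p = 1.44e-14). These values understate the ratio, because 1 FPKM is added to both sides: on day 10 the log2 fold change of Msln was 7.55 with 0.1 FPKM added, 2.75 with 5 FPKM added and 8.62 with edgeR on the recovered fragments.

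Lrrn4 stood at 5.66 ± 1.65 FPKM in E12.5_GC, with 3.79 FPKM in the lowest library and 6.89 in the highest. It was 16.6 ± 0.581 FPKM on day 4, 28.6 ± 2.02 on day 6, 23.9 ± 1.2 on day 8 and 16.1 ± 0.576 on day 10. Every V580 library lay above every E12.5_GC library, and days 4 and 10 overlapped. It was higher on day 4 (1.43 ± 0.134, limma adjusted p = 1.7e-07), day 6 (2.18 ± 0.134, limma adjusted p = 1.93e-09), day 8 (1.94 ± 0.134, limma adjusted p = 8.86e-09) and day 10 (1.39 ± 0.134, limma adjusted p = 2.89e-07). The decline from day 8 to day 10 passed the p threshold but not 2-fold (-0.54 ± 0.134, limma adjusted p = 0.00626).

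FPKM allow levels of the 4 genes to be set side by side. In E12.5_GC the order was Upk3b, then Lrrn4 and Upk1b, which overlapped, then Msln. On day 6 it was Upk3b, Lrrn4, Upk1b and Msln with no overlap, and on day 10 Upk3b, then Msln and Upk1b, which overlapped (27.3 to 31.9 and 25.5 to 27.8 FPKM), then Lrrn4.

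Against E12.5_GC, 3 of the 4 members were called on day 4, where 20.4% of all genes were, 2 higher (9.13% of all genes) and 1 lower (11.3%). On day 6, 2 were called higher (15.2% of all genes called, 7.06% higher), on day 8 all 4 (13% and 6.9%) and on day 10 all 4 (16.4% and 9.16%). By the p threshold without the fold limit Upk3b was also lower on day 4, as 34.3% of all genes were, and Upk3b and Upk1b were higher on day 6, as 35% were. The medians of the 4 log2 fold changes were 0.21, 1.52, 1.99 and 1.77 on days 4, 6, 8 and 10, against 0.03, 0.03, 0.00 and 0.03 over all genes, and the 4 comparisons share the E12.5_GC libraries. With 5 FPKM added in place of 1, the calls of Upk1b and Msln on day 4, Msln on day 6 and Lrrn4 on day 10 fell under 2-fold.

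From day to day, fewer members were called at each later step. Between days 4 and 6, 3 members rose (5.08% of all genes called, 3.41% upward), and Lrrn4 passed the p threshold only (0.75 ± 0.134, limma adjusted p = 0.000363), as 21.9% of all genes did upward. Between days 6 and 8, Upk1b and Msln rose (1.19 and 1.53; 2.55% of all genes called, 2.29% upward), and Upk3b passed the p threshold only (0.65 ± 0.0722, limma adjusted p = 6.71e-06), as 20.3% did upward. Between days 8 and 10, limma called 0 members and 1.29% of all genes, and edgeR on the recovered fragments also called 0 members. Msln was then higher (0.80 ± 0.0975, limma adjusted p = 2.9e-05) and Lrrn4 lower by p alone, as 19.5% and 15% of all genes were.

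Of the companion list, 20 genes were tested, and 13 were higher and 5 lower on day 10 than in E12.5_GC, with a median log2 fold change of 1.54. In that comparison 16.4% of all genes were called, and 9.16% of all genes were called higher. The largest differences were those of Lhx9 (-5.15), of the epithelial genes Cdh1 (4.85) and Krt19 (4.10), and of Efemp1 (3.79), a matrix protein. Wt1, at 72.5 FPKM in E12.5_GC, stood at 22.8, 45.1, 59.98 and 52.4 FPKM on days 4, 6, 8 and 10. Lhx9, at 35.7 FPKM in E12.5_GC, did not exceed 0.126 FPKM on average on any day. The summed level of 9 mesothelial markers other than the members was 205 to 224 FPKM in E12.5_GC and 48.2 to 51.0 FPKM on day 4, while 2 of the 4 members were already higher. It was 156 to 172, 182 to 190 and 158 to 165 FPKM on days 6, 8 and 10, below every E12.5_GC library, while all 4 members lay above E12.5_GC on those days. These sums include Lhx9, so where days 6, 8 and 10 stand against E12.5_GC depends in part on that gene.

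Markers of other cell types moved over the same days. Pregranulosa markers summed to 421 to 519 FPKM in E12.5_GC and to 26.8 to 29.7 FPKM on day 4 and 103 to 115 FPKM on day 10, and all 7 were called lower on days 4 and 6. Of all genes, 11.3% were called lower on day 4. On day 6, 15.2% were called in either direction, of which the part called higher was 7.06% of all genes and the rest were lower. Endothelial markers summed to 49.7 to 79.4 FPKM in E12.5_GC, 2.20 to 2.34 FPKM on day 4 and 66.6 to 68.8 FPKM on day 10. Germ cell markers summed to 2.53 to 5.01 FPKM in E12.5_GC, 18.2 to 20.4 FPKM on day 4 and 8.96 to 10.6 FPKM on day 10. Upk1a, the urothelial uroplakin, stood at 0.254 FPKM in E12.5_GC and at 21.4, 13.9, 22.1 and 53.5 FPKM on days 4, 6, 8 and 10. The summed level of 9 interstitial markers went from 100 to 112 FPKM on day 4 to 1472 to 1808 FPKM on day 10, against 270 to 294 FPKM in E12.5_GC, and 3 erythroid genes summed to 1038 to 4435 FPKM in E12.5_GC and below 1 FPKM in V580 cells. Their part in the differences of the 4 genes was not tested.

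At 24 h and 48 h, Lrrn4 and Msln were the only members above the filter of 1 FPKM in 2 libraries, and they moved in opposite directions with time. Msln fell and Lrrn4 rose between 24 h and 48 h, in all 4 treatments, and at 48 h Lrrn4 was higher with AM580 alone than in Con or V580, by under 2-fold. These values were tested with limma over 10644 genes by the same rule.

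**Figure D3:**
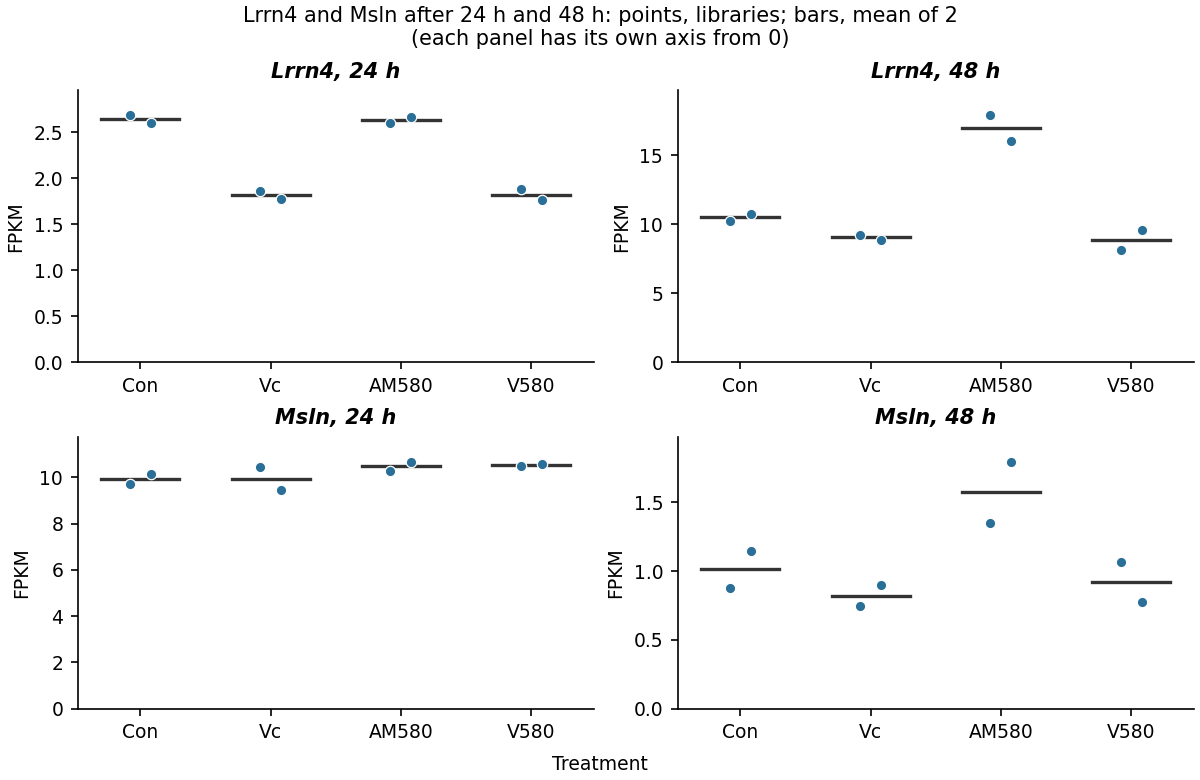
FPKM of Lrrn4 and Msln after 24 h and 48 h in Con, Vc, AM580 and V580 libraries, with 1 point per library and a bar at the mean of 2, each panel on its own linear axis from 0. At 48 h the AM580 libraries of Lrrn4 (17.9 and 16 FPKM) lie above the 6 others, and Msln is 9.44 to 10.7 FPKM at 24 h.

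Lrrn4 at 24 h was 2.68 and 2.60 FPKM in Con, 1.86 and 1.77 FPKM in Vc, 2.59 and 2.66 FPKM in AM580, and 1.88 and 1.76 FPKM in V580. The libraries with Vc lay below those without it. Lrrn4 was lower with Vc than in Con (-0.37 ± 0.071, limma adjusted p = 0.00346), with V580 than in Con (-0.37 ± 0.071, limma adjusted p = 0.00128) and with V580 than with AM580 (-0.36 ± 0.071, limma adjusted p = 0.00311), all under 2-fold.

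At 48 h Lrrn4 was 10.2 and 10.8 FPKM in Con, 9.24 and 8.87 FPKM in Vc, 17.9 and 16 FPKM in AM580, and 8.14 and 9.56 FPKM in V580. AM580 alone stood apart above the rest. Against Con, Lrrn4 differed by 0.64 ± 0.071 with AM580 (limma adjusted p = 2.67e-06), by -0.23 ± 0.071 with V580 (limma adjusted p = 0.0138) and by -0.19 ± 0.071 with Vc, which did not pass (limma adjusted p = 0.0941). V580 and AM580 differed by -0.87 ± 0.071 (limma adjusted p = 1.12e-06), all again under 2-fold. The effect of Vc was thus -0.87 with AM580 and -0.19 without it, and the test of that difference gave -0.68 ± 0.1 (limma adjusted p = 0.00142), which 3.61% of all genes passed.

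Msln was 9.44 to 10.7 FPKM in all 8 libraries at 24 h, and the treatments did not pass a test there. At 48 h it was 0.880 and 1.15 FPKM in Con, 0.745 and 0.898 FPKM in Vc, 1.35 and 1.80 FPKM in AM580, and 1.06 and 0.777 FPKM in V580, from 30 to 72 fragments. AM580 again lay above the rest, by 0.35 ± 0.0942 against Con (limma adjusted p = 0.00533), while V580 was lower than AM580 by 0.42 on the log2 scale (limma adjusted p = 0.006). For Msln the difference between both Vc effects at 48 h did not pass (-0.28 ± 0.133, limma adjusted p = 0.344).

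By the 2-fold rule, limma called neither of the members it tested, Lrrn4 and Msln, in any comparison of treatments. With edgeR on the recovered fragments, neither these nor Upk3b were called. Upk3b was below the limma filter and Upk1b below both filters, so they were not tested there. At 24 h the limma rule called 0.0846% of all genes for Vc, 0.404% for AM580 and 0.695% for V580 against Con, and 0.0658% for V580 against AM580. At 48 h it called 0.047%, 3.23%, 3.18% and 0.263%. Without the fold limit Lrrn4 was lower at 24 h with Vc (as 5.98% of all genes were), V580 (15.5%) and V580 against AM580 (7.31%). At 48 h Lrrn4 and Msln were higher with AM580 (25.7%) and lower with V580 than with AM580 (10.7%), and Lrrn4 was lower with V580 than in Con (31.2%). From 24 h to 48 h in Con, 7.72% of all genes were called (2.52% higher and 5.2% lower), and both were called, Lrrn4 higher by 1.66 ± 0.071 (limma adjusted p = 3.61e-11) and Msln lower by 2.44 ± 0.0942 (limma adjusted p = 1.15e-11). In comparisons added after the values were seen, the same was found with Vc (1.84 and -2.58, 8.16% of all genes called), AM580 (2.31 and -2.16, 7.37%) and V580 (1.80 and -2.59, 8.01%). The treatment groups share the Con libraries of their time.

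Marker lists of other cell types changed with time and treatment, in both directions. In Con, from 24 h to 48 h, summed interstitial markers went from 120 to 130 FPKM to 35.1 to 36.5 FPKM, macrophage markers from 41.8 to 43.9 FPKM to 8.15 to 8.36 FPKM, and endothelial markers from 19.1 to 20.5 FPKM to 6.94 to 7.59 FPKM, and each list was lower at 48 h in every other treatment too. Adult granulosa markers also fell in Con, from 29.6 to 33.5 FPKM to 6.01 to 6.38 FPKM. Neuron markers fell there from 47.3 to 51.4 FPKM to 29.3 to 31.2 FPKM, and germ cell markers from 735 to 801 FPKM to 487 to 495 FPKM. Other lists rose in Con. Mesothelial markers other than the members went from 11.5 to 12.4 FPKM to 13.7 to 14.3 FPKM. Mesonephros, Mullerian and oviduct markers went from 138 to 142 FPKM to 212 to 213 FPKM, and pregranulosa markers from 9.01 to 9.59 FPKM to 14.7 to 15.1 FPKM. At 48 h the extraembryonic endoderm markers summed to 20.2 to 20.7 FPKM with AM580, against 5.22 to 5.84 FPKM in Con, 5.31 to 5.45 FPKM with Vc and 10.3 to 12.3 FPKM with V580. The part of these cell types in the values of Lrrn4 and Msln was not tested.

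Upk3b and Upk1b were below the filter in this series, and Upk1b was near the limit of detection. Upk3b had 36 to 64 fragments per library at 24 h (0.567 to 0.908 FPKM) and 5 to 22 at 48 h (0.0748 to 0.317 FPKM), and no library of one time overlapped the other. In Con its summed fragments at 48 h were 0.248 times those at 24 h (exact 95% counting interval 0.149 to 0.397), and edgeR on the recovered fragments, an alternative chosen after the data were seen, gave a log2 fold change of -2.0 (adjusted p = 0.00018). With Vc, AM580 and V580 the ratios of Upk3b were 0.261 (0.168 to 0.395), 0.349 (0.216 to 0.549) and 0.197 (0.117 to 0.316). Upk1b had 0 to 7 fragments per library, so that no difference between times was detectable at this depth. By V580 day 4, in another set of libraries of the same table, Upk3b stood at 22.5 FPKM, Lrrn4 at 16.6 FPKM and Msln at 1.67 FPKM.

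The 10x library of V580 day 6 separated Msln from the other members. It held 15412 barcodes, of which 15315 had 200 genes or more and no more than 40% of mitochondrial UMIs, with a median of 9281 UMIs (counted molecules) per cell. The study's methods speak of 10x sequencing in triplicate, but the matrix used here held 1 barcode suffix and no map of cells to replicates, and it was treated as 1 library. It therefore allows no test, and the intervals below are exact and cover counting error only. Doublets were not removed.

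Upk3b was found in 5428 cells, 35.4% of all (34.7% to 36.2%), with 1.18 UMIs per 10000. Lrrn4 was found in 2715 cells, 17.7% (17.1% to 18.3%), with 0.266 UMIs per 10000, and Upk1b in 1252 cells, 8.17% (7.75% to 8.62%), with 0.106. Msln was found in 440 cells, 2.87% (2.61% to 3.15%), with 0.0429 UMIs per 10000. This was the order of the bulk day 6 libraries. With each cell thinned to 3000 UMIs, which left out 5078 shallower cells, the shares were 24.4%, 7.53%, 3.14% and 1.15%. Of the 15315 cells, 9023 showed none of the 4 genes and 34 showed all 4.

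The cells were clustered without the 4 genes, which gave 12 clusters. Cluster 1 (3234 cells, median 12172 UMIs) had Wt1, Aldh1a2, Bnc2 and Igfbp5 among its leading genes and was mesothelial-like, since 5 of 10 mesothelial markers other than the members (Wt1, Aldh1a2, Bnc1, Gpm6a and Muc16) stood over 2-fold above the other cells. Cluster 2 (1813 cells, median 17566 UMIs) was led by genes of dividing cells such as Aspm, Mki67 and Top2a and stayed unnamed, although 6 of the 10 markers stood over 2-fold there. Cluster 5 (1042 cells, median 15997 UMIs) was led by Wfdc2, Stra8, Cxcl15, Cldn3, Wnt6 and Epcam, with only Efemp1 of the 10 markers over 2-fold, and cluster 7 (904 cells, median 23201 UMIs) by Srgn, Rbp4, Pitx1 and Cubn.

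**Figure D4:**
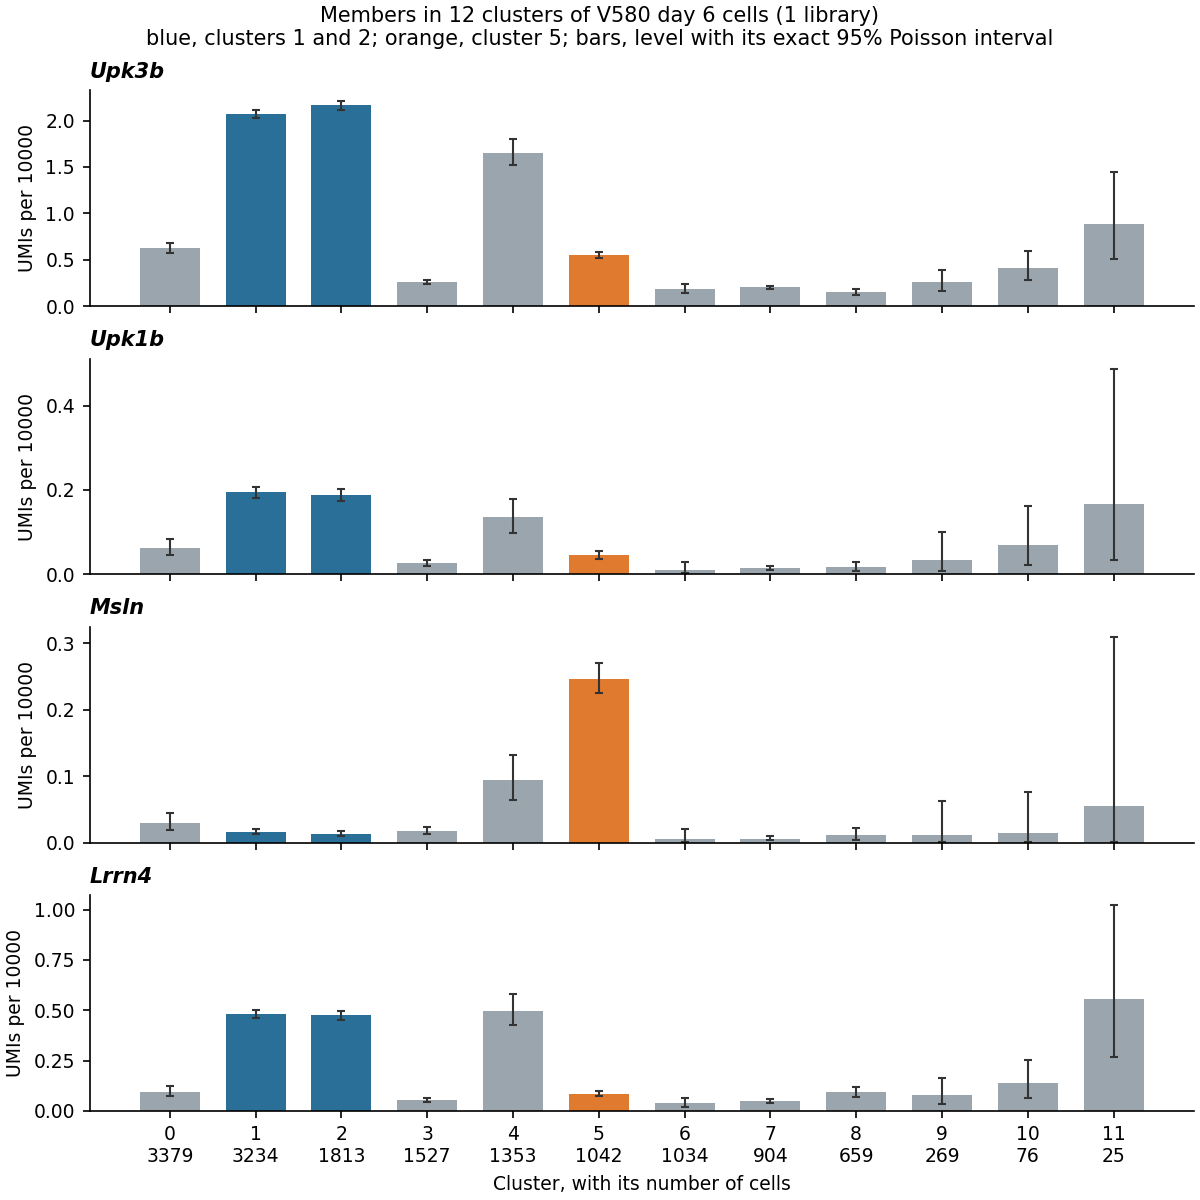
UMIs per 10000 of the 4 genes in 12 clusters of V580 day 6 cells (1 library), with exact 95% Poisson intervals and the number of cells of each cluster on the horizontal axis. Upk3b, Upk1b and Lrrn4 are high in clusters 1 and 2 (blue) and Msln in cluster 5 (orange, 0.247 UMIs per 10000).

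Upk3b stood at 2.07 UMIs per 10000 in cluster 1 and 2.16 in cluster 2, against 0.548 in cluster 5 and 0.202 in cluster 7. Upk1b stood at 0.194, 0.188, 0.0451 and 0.0144, and Lrrn4 at 0.482, 0.475, 0.0838 and 0.0470 in these clusters. All 3 genes shared a pattern, high in clusters 1 and 2 and low in cluster 7. Taking cluster 7 as background, clusters 1 and 2 together were higher by 10.5 times for Upk3b (9.53 to 11.5), 13.3 times for Upk1b (9.44 to 19.4) and 10.2 times for Lrrn4 (8.41 to 12.4). Between clusters 2 and 1, Upk3b differed by 1.05 times (1.01 to 1.08), and the intervals of Upk1b and Lrrn4 included 1.

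Msln went elsewhere. It stood at 0.247 UMIs per 10000 in cluster 5 and at 0.0166, 0.0134 and 0.00609 in clusters 1, 2 and 7. The next highest cluster of at least 50 cells was cluster 4, at 0.0938 (0.0641 to 0.132), from 32 UMIs. Cluster 5 was thus 16.3 times higher than clusters 1 and 2 together (13.2 to 20.2) and 40.5 times higher than cluster 7 (23.9 to 74.6). Cluster 4 was 6.19 times higher than clusters 1 and 2 together (4.04 to 9.23), and these were 2.49 times higher than cluster 7 (1.42 to 4.69). Msln was found in 23.0% of the cells of cluster 5, against 1.82% in cluster 1, 1.99% in cluster 2 and 1.33% in cluster 7. At 3000 UMIs per cell these shares were 6.90%, 0.344%, 0.333% and 0.334%, the last 3 from 11, 6 and 3 cells, too few to order those clusters. The share in cluster 4 was then 3.28% (1.71% to 5.66%), from 12 of the 366 cells deep enough.

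**Figure D5:**
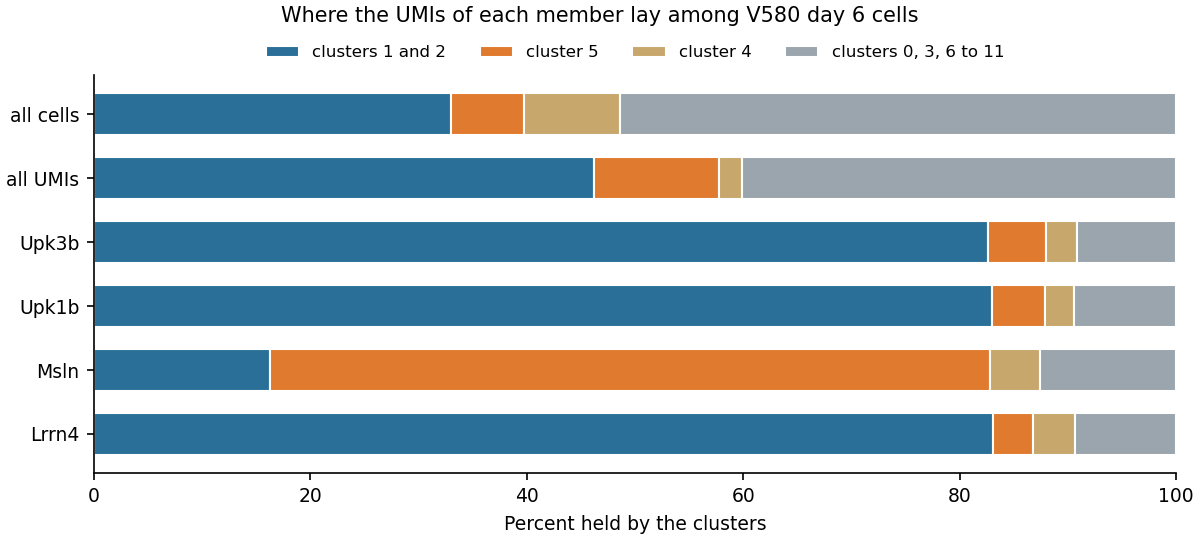
Percent of all cells, of all UMIs and of the UMIs of each gene that lay in clusters 1 and 2, cluster 5, cluster 4 and the remaining clusters of V580 day 6 cells. Clusters 1 and 2 hold 82.6% of Upk3b UMIs but 16.3% of those of Msln, and cluster 5 holds 66.5% of those of Msln.

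Clusters 1 and 2 held 33.0% of cells and 46.2% of UMIs. They held 82.6% of Upk3b UMIs (82.0% to 83.1%), 83.0% of Upk1b UMIs (81.1% to 84.7%) and 83.1% of Lrrn4 UMIs (82.0% to 84.2%). Of the 699 Msln UMIs they held 16.3% (13.6% to 19.3%), whereas cluster 5, with 6.80% of cells, held 465, or 66.5% (62.9% to 70.0%). Most UMIs of 3 of the 4 genes thus lay in clusters 1 and 2, where 5 and 6 of the 10 other mesothelial markers stood over 2-fold. Cluster 5, where only Efemp1 of the 10 did, held most UMIs of Msln. Cluster 1 alone, the only cluster named mesothelial-like, held 8611 of 19241 Upk3b UMIs, 808 of 1734 Upk1b UMIs and 2004 of 4333 Lrrn4 UMIs.

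The low levels of 3 members in cluster 5 were still above cluster 7, by 2.71 times for Upk3b (2.43 to 3.03), 3.14 times for Upk1b (2.08 to 4.85) and 1.78 times for Lrrn4 (1.39 to 2.30). This was not particular to cluster 5. Cluster 0 (3379 cells, median 1464 UMIs) held them at 0.625, 0.0619 and 0.0957 UMIs per 10000, no lower than cluster 5. The ratio between the uroplakins changed little: clusters 1, 2, 5 and 7 held 9.38, 8.67, 8.23 and 7.11 UMIs of Upk1b per 100 UMIs of Upk3b. For Msln these numbers were 0.801, 0.618, 45.0 and 3.02. Cluster 4, with a median of 2025 UMIs and 15.8% mitochondrial counts, was led mostly by mitochondrial genes and not named. It had mesothelial markers other than the members at 5.11 UMIs per 10000 as against 5.10 in cluster 1, with only Muc16 of the 10 over 2-fold. It held Msln as given above and Lrrn4 at 0.498 UMIs per 10000, which is 1.03 times cluster 1 (0.879 to 1.21). Upk3b stood at 1.66 and Upk1b at 0.135 UMIs per 10000 in cluster 4.

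Other uroplakins and epithelial genes, chosen after their values were seen, were compared between clusters 5 and 1. Upk1a stood at 0.469 UMIs per 10000 in cluster 5 and 0.0144 in cluster 1, and Upk3bl at 0.296 and 0.00890. Epcam, an epithelial adhesion protein, stood at 7.41 and 0.877, and Krt19 at 5.85 and 3.18. Epithelial genes were also high where Msln was low: cluster 8 (659 cells) had Krt19 at 9.24, Krt8 at 19.2 and Epcam at 3.94 UMIs per 10000, with Msln at 0.0108. Muc16, the partner of Msln, was higher in cluster 1 (0.0548) than in cluster 5 (0.0302), and Wt1 stood at 3.09 in cluster 1 and 0.561 in cluster 5. Doublets, which could join genes of different cells, were not removed, and their part was not tested.

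Within single cells, Upk1b and Lrrn4 were found more often where Upk3b was. After thinning to 3000 UMIs, Upk1b was seen in 7.33% of cells with Upk3b and 1.78% of cells without it, and Lrrn4 in 15.0% and 5.12%, whereas Msln was seen in 0.841% and 1.25%. Inside clusters 1 and 2, Lrrn4 was seen in 16.3% of cells with Upk3b (14.7% to 18.0%) and 10.2% of cells without it (9.13% to 11.3%), and Upk1b in 8.32% and 3.41%. Inside cluster 5, Upk3b was seen in 21.1% of the 71 cells with Msln (12.3% to 32.4%) and in 10.9% of those without it (8.96% to 13.0%).

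Genes whose levels ran most like those of each member were ranked by Pearson's r as a description, with libraries of a group and clusters of 1 library not independent. Over 15 libraries of V580 days and E12.5_GC and 8408 genes, the gene most like Upk3b was Upk1b (r = 0.995), ahead of Krt14 and Ptn. Msln was most like Mal (0.994), Actg2 and Plod2, and Lrrn4 most like Foxp1 (0.992), Igsf9 and Sh3rf1. Over 11 clusters of at least 50 cells and 11310 genes, Upk1b was second only to Ildr2 (0.987) for Upk3b, with r = 0.985.

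The other 10x neighbours were Stc1 and Rspo1 for Upk1b, Hs3st3a1, Ildr2 and Bnc2 for Lrrn4, and Slc16a12, Adrb1 and Erbb3 for Msln. Among the members themselves, r across clusters was 0.955 to 0.985 between Upk3b, Upk1b and Lrrn4 and -0.003 to 0.050 between Msln and those genes. Over the 8 GSC libraries and 12591 genes the nearest were Mir675, Fgf11 and Cgn for Upk3b, Ereg and Fam198b for Lrrn4, A630072M18Rik, Fnta and Serinc3 for Upk1b, and Prss35, Cyp2j9 and Bmp3 for Msln. Mir675 lies inside H19, and reads of both cannot be told apart there. Between Msln and Upk3b r was -0.91 in GSC stages and 0.80 over V580 days and E12.5_GC.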

How the data were processed

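The 4 genes and the lists were chosen with earlier results of these data known. For the GSC stages the authors deposited raw read counts of genes (the submitters' processing notes name Trim Galore, HISAT2, featureCounts and mm10). They also deposited FPKM, for which the paper's text names no tool, and 10x UMI counts made with Cell Ranger. Columns written X580 and C were read as AM580 and Vc. Another deposited table was left out, since its 10 columns carry names of no sample analysed here.

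Counts were tested in edgeR 4.0.16 (R 4.3.3) in one model of 8 libraries, with filterByExpr and TMM. log2(FPKM + 1) of genes with at least 1 FPKM in 3 libraries (days) or 2 libraries (treatments) was tested in limma 3.58.1 with trend. Of the low FPKM values, 97.5% were whole fragments within 0.1. For Msln the annotated 3064 exon bases did not give whole fragments, and a length of 2114 bases fitted to the same steps was used. CPM per kilobase rested on the annotated lengths. 10x counts were clustered in scanpy 1.11.5 with 2000 variable genes, 20 components, 20 neighbours and Leiden at 0.5. Scrublet marked 1 of 15315 cells and was not used. The edgeR and limma procedures were tried on simulated data with planted changes.

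Genes named were the members, the 3 most like each (1 gene is not reported here), relatives, and up to 8 of the companion list by size of change or known role, while Ddx3y, Upk1a, Epcam, Krt19, Upk3bl and leading genes of clusters were chosen after values were seen. Alternatives were DESeq2 1.42.0, other filters, scalings, pseudocounts, left-out libraries, a lane term and a replicate block. Replicate numbers did not pair libraries.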

Additional observations from a re-analysis of the deposited data

Results flagged for a closer look

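In ESCs at 48 h, the effect of Vc on Lrrn4 differed with and without AM580. It was -0.87 on the log2(FPKM + 1) scale with AM580 and -0.19 without it, a difference of -0.68 ± 0.1 (limma adjusted p = 0.00142, 2 libraries per group). At 24 h the difference was 0.01 ± 0.1 (limma adjusted p = 0.999).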

How the results depend on the processing

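Under the alternatives run, no gene changed direction among called results. Of 60 alternative counts of called members in GSC stages 51 stayed within 1.5 times, and 93 of 98 did for V580 days and 102 of 108 for treatments. From E12.5 to E13.5, where 1 member was called, the count was 0 with a 2-fold limit, 0 with DESeq2, 0 to 0 when single libraries were left out, 2 with a lane term and 2 with those stages alone. From E13.5 to E16.5 a 2-fold limit left 1 of 2. With 5 FPKM added, 1 of 3 members stayed called on day 4, 1 of 2 on day 6 and 1 of 2 from day 6 to 8. Without a fold limit, 4 were called on day 6, 2 from day 8 to 10, 1 each for Vc, V580 and V580 against AM580 at 24 h, and 2, 1 and 2 for AM580, V580 and V580 against AM580 at 48 h. The shares of 10x cells for Upk3b, Upk1b, Msln and Lrrn4 were 24.4%, 3.14%, 1.15% and 7.53% when thinned and 44.6%, 10.6%, 3.67% and 22.9% in cells of at least 1000 genes. At a resolution of 1.0 the highest cluster levels were 2.654, 0.2811 and 0.2806 UMIs per 10000 for Upk3b, Upk1b and Msln. The cause of these shifts was not tested. Same-numbered libraries did not deviate together (r of -0.07 to 0.12 over 6 pairs in GSC stages, -0.43 to 0.39 over 30 in V580 days). With a replicate block the counts of called members were 1, 3, 4, 2 and 4 in the 5 stage comparisons, and 3, 2, 4 and 4 on days 4, 6, 8 and 10 against E12.5_GC, as without it. Over all genes, edgeR on fragments recovered from FPKM, which was chosen after the data were seen, called 4118, 3296, 2859 and 3484 genes on days 4, 6, 8 and 10 against 2354, 1747, 1493 and 1887 with limma, and 2.63 to 18.2 times as many in treatments. Counts of all genes were 0.37 to 0.58 times as high with a 2-fold limit in stages, 3.5 to 26.6 (days) and 8.55 to 265 (treatments) times as high without one, and 0.287 to 0.453 and 0.111 to 0.371 times as high with 5 FPKM added. With 0.1 FPKM added they moved by over 1.5 times in 3 day comparisons (1.8 to 2.32) and 9 treatment comparisons (1.72 to 8.2). Without either E12.5 library, 3814 and 3899 genes were called at E16.5 in place of 6160.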
